A study of Homo sapiens
Mus musculus with 16 samples.

Results

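The MTRNR2L genes are short nuclear copies of the mitochondrial 16S ribosomal RNA gene, and their open reading frames resemble that of humanin, a small peptide encoded inside that rRNA. The genes described here are 7 listed by name (MTRNR2L1, MTRNR2L2, MTRNR2L3, MTRNR2L6, MTRNR2L8, MTRNR2L9 and MTRNR2L10). Of these, 6 had a row among the 23368 rows of the human table, and MTRNR2L9 was not analysed here. The family was chosen by its high share of the human reads and its values across the treatment groups, so those values are a description of these libraries and support nothing further.

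Tumours grown from ScaBER, an established human bladder cancer line, in athymic nude mice (Hsd:Athymic Nude-Foxn1nu) were sequenced after 14 days of treatment. The 4 groups were vehicle (0.5% methylcellulose with 0.1% Tween80), 40 mg/kg of nintedanib, 25 mg/kg of alpelisib (also known as BYL719), and both drugs at those doses, called the combination. Each group had 4 libraries, 16 in all, and the labels do not say whether each came from its own animal, nor the age of the mice. Alpelisib blocks PI3K alpha, and nintedanib blocks receptor kinases of the FGF, PDGF and VEGF families. The study asked how the drugs act in synergy.

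Humanin is known for protecting cells from death. It binds the pro-apoptotic proteins BAX and BID and the growth factor carrier IGFBP3, and signals at the cell surface through formyl peptide receptors and through a complex that holds IL6ST, CNTFR and IL27RA. Mitochondrial rRNA is far more abundant than most messenger RNA, and a short read from it can align to a nuclear copy. The human table had 0 rows for mitochondrially encoded genes, 16S rRNA included, and how reads with several alignments were counted is not given in the sources used here. Reads of the mitochondrial rRNA and of its nuclear copies therefore cannot be told apart here, nor can reads of 1 copy and another, and every level below is that of a row, not of a locus. In bulk tumours, fewer cells of a kind and less RNA per cell cannot be told apart either.

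Libraries held 8303617 to 18568119 reads on human genes, and 3606008 to 6850491 on mouse genes. The squamous markers KRT5, KRT6A, KRT14, TP63, SFN, DSG3 and PERP were all detected in every group, and took 1.43% to 2.36% of human reads. A list of 7 markers of human leukocytes, stroma and vessel, collagen genes included, took 0.311% to 0.610% of human reads, and whether mouse reads aligned to them was not tested. Skeletal muscle markers of the mouse were high in nintedanib 4, at 3.93% of mouse reads, and in combination 1, at 2.37%, and reached at most 0.560% elsewhere. The 6 adipocyte markers of the mouse, all detected in each group, ran from 0.00338% to 0.419% of mouse reads with vehicle, 0.00244% to 0.00966% with nintedanib, 0.00297% to 0.246% with alpelisib and 0.00337% to 0.0821% with the combination.

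MTRNR2L8 had more reads than any other gene over the 16 libraries pooled. It ranked first in 14 libraries, at rank 2 in vehicle 1 and at rank 5 in combination 2. With vehicle its share of human reads was 1.51%, 3.34%, 3.78% and 3.85% in replicates 1 to 4. With nintedanib the shares were 5.28%, 6.33%, 4.48% and 6.27%. All 4 nintedanib libraries lay above all 4 vehicle libraries.

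With alpelisib the MTRNR2L8 share was 4.50%, 2.62%, 3.44% and 2.43%. With the combination it was 2.74%, 0.892%, 3.34% and 4.73%. Both of these groups overlapped vehicle, and combination 2 was the lowest of all 16 libraries, at a share 7.09-fold below nintedanib 2. Adipocyte markers were highest in the library of lowest MTRNR2L8 share in vehicle (0.419% of mouse reads in vehicle 1), alpelisib (0.246% in alpelisib 4) and the combination (0.0821% in combination 2). The next lowest libraries of these groups, vehicle 2, alpelisib 2 and combination 1, held 0.0138%, 0.153% and 0.0281%. The nintedanib group differed. There nintedanib 3, of the lowest MTRNR2L8 share, held 0.00458%, and the highest adipocyte value, 0.00966%, was in nintedanib 4, at a share of 6.27%. The part of fat in the sampled tissue in these shares was not tested. The mean share (± SD, n = 4) was 3.12% ± 1.09 in vehicle, 5.59% ± 0.882 in nintedanib, 3.25% ± 0.942 in alpelisib and 2.93% ± 1.59 in combination tumours.

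**Figure D1:**
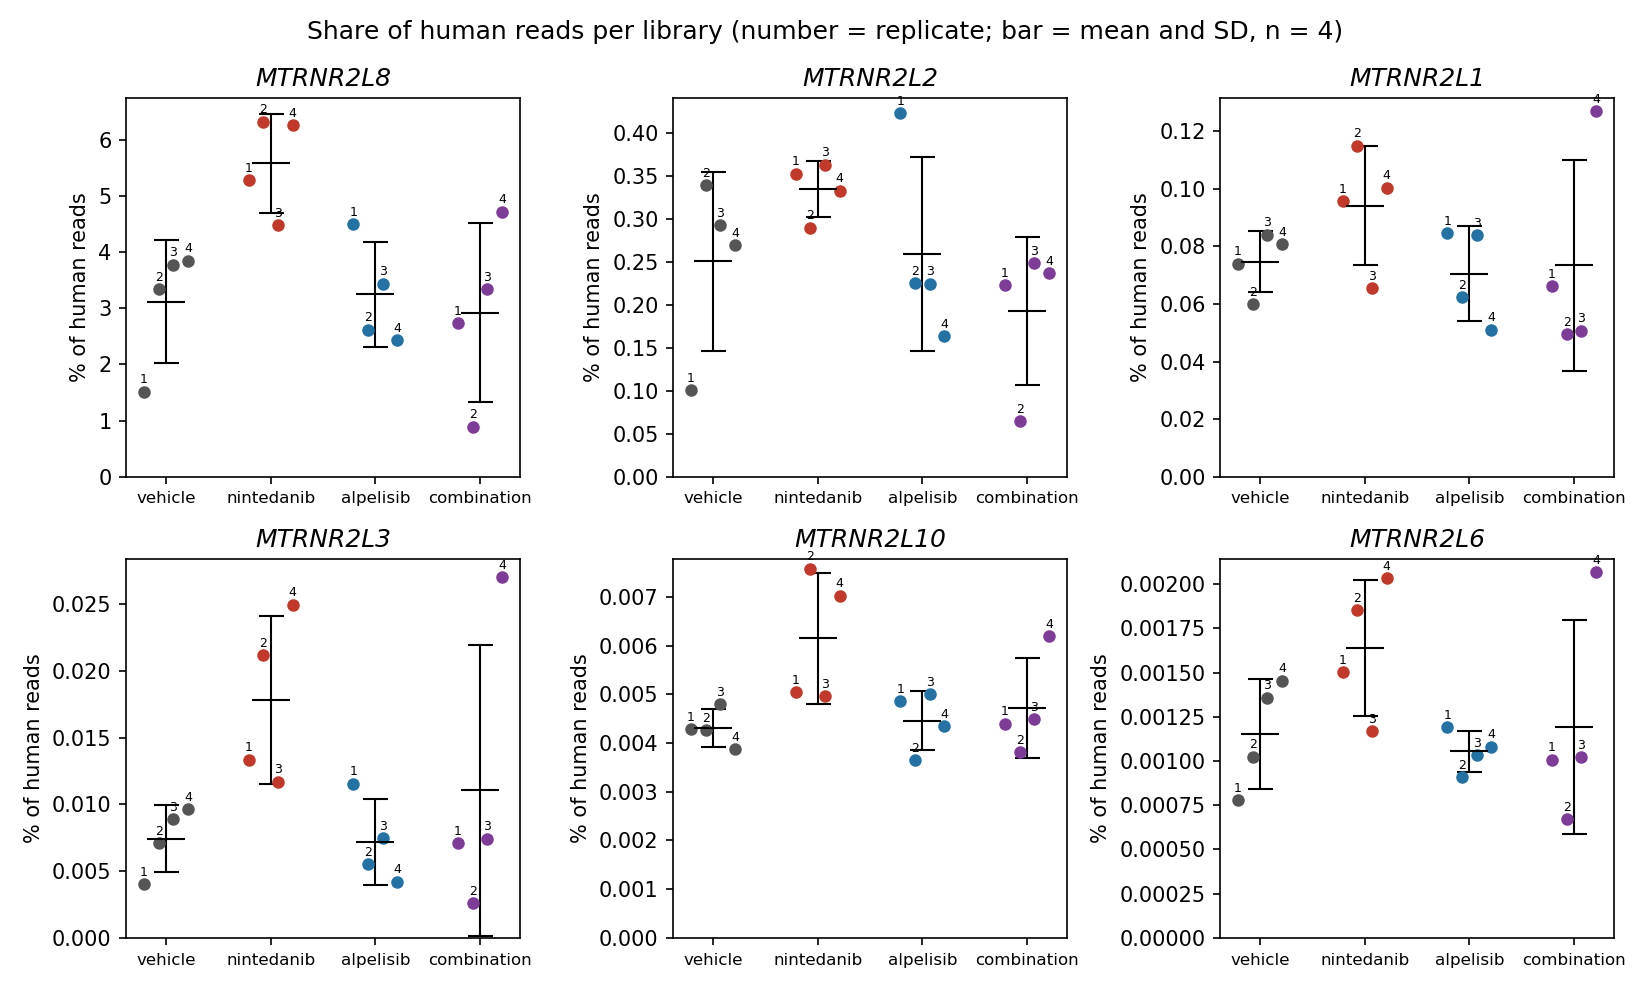
Share of human reads (percent, linear axis from 0) of the 6 MTRNR2L genes in each library, by treatment group. Points are libraries numbered by replicate and bars are the mean with SD (n = 4). For MTRNR2L8, MTRNR2L3 and MTRNR2L10 every nintedanib library lies above every vehicle library, and vehicle 1 and combination 2 are low for MTRNR2L8 and MTRNR2L2.

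MTRNR2L2 was the second most read member. Its share was 0.101%, 0.340%, 0.293% and 0.270% in vehicle 1 to 4 and 0.353%, 0.290%, 0.363% and 0.333% in nintedanib 1 to 4, so that nintedanib 2 and 4 lay within the vehicle range. It was 0.423%, 0.225%, 0.225% and 0.164% in alpelisib 1 to 4 and 0.223%, 0.0648%, 0.249% and 0.237% in combination 1 to 4. All combination libraries were below all nintedanib libraries. As with MTRNR2L8, vehicle 1 and combination 2 were the lowest, but the highest was alpelisib 1.

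MTRNR2L1, the third by reads, is given in RPM, the reads per 1000000 human reads. It stood at 740, 599.8, 840.3 and 807.8 in vehicle 1 to 4 and at 957.1, 1150.2, 655.6 and 1003.8 in nintedanib 1 to 4. It stood at 845.9, 623.7, 838.4 and 511.1 in alpelisib 1 to 4 and at 662.9, 495.4, 506.9 and 1270.3 in combination 1 to 4. No drug group was separated from vehicle, and the highest library was combination 4. Unlike MTRNR2L8, MTRNR2L1 was not low in vehicle 1.

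MTRNR2L3 varied most among the members, with normalized values differing 9.05-fold between combination 2 and nintedanib 4. In RPM it was 40.5, 71.2, 89.0 and 96.6 in vehicle 1 to 4 and 134, 212, 117 and 249.7 in nintedanib 1 to 4, with no overlap. It was 116, 55.4, 74.8 and 42.2 in alpelisib 1 to 4, and 71.0, 26.1, 74.5 and 270.3 in combination 1 to 4. On this scale combination 4 stood above all nintedanib libraries while the other 3 combination libraries stood below all of them.

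MTRNR2L10 varied least in normalized value, 2.18-fold over all libraries. Its RPM were 42.9, 42.6, 48.0 and 38.8 in vehicle 1 to 4 and 50.4, 75.8, 49.6 and 70.2 in nintedanib 1 to 4. These groups did not overlap, although nintedanib 1 and 3 were close to vehicle 3. Alpelisib libraries ran from 36.5 to 49.99 and combination libraries from 38.2 to 61.9. MTRNR2L6 had the fewest reads, 95 to 370 per library, with 7.81 to 14.6 RPM with vehicle, 11.7 to 20.4 with nintedanib, 9.10 to 11.9 with alpelisib and 6.73 to 20.7 with the combination, and all groups overlapped vehicle.

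The order of the 6 genes by reads was MTRNR2L8, MTRNR2L2, MTRNR2L1, MTRNR2L3, MTRNR2L10 and MTRNR2L6. It was the same per kilobase of gene length in the RefSeq table of GRCh38.p14, which is not the build of the files and serves only for names, lengths and neighbours. Reads of 3′ mRNA libraries need not scale with gene length, so the order per kilobase is no check on abundance. The RefSeq table calls all 7 listed genes pseudogenes and places them on 7 different chromosomes. MTRNR2L8 made up 88.0% to 93.6% of the reads of the 6 genes, so their sum mostly reflects that gene.

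Summed, the 6 genes took a mean share (± SD, n = 4) of 3.46% ± 1.19 in vehicle, 6.04% ± 0.882 in nintedanib, 3.59% ± 1.07 in alpelisib and 3.21% ± 1.70 in combination tumours. All nintedanib libraries, from 4.93% to 6.76%, lay above all vehicle libraries, which reached 4.22%. Alpelisib 1 (5.02%) and combination 4 (5.12%) reached into the nintedanib range, and the other 3 groups overlapped each other. Leaving the 6 genes out of the library total would raise the share of every other gene by 1.02% in combination 2 and by up to 7.25% in nintedanib 2.

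The mean log2 share of the sum was 0.88 higher with nintedanib than with vehicle, against a pooled SD between replicates of 0.64. It was 0.57 higher without vehicle 1. The combination stood at -1.12 relative to nintedanib, and at -0.64 without combination 2. Alpelisib stood at 0.10 relative to vehicle (-0.22 without vehicle 1), the combination at -0.24 relative to vehicle (0.24 without combination 2) and at -0.34 relative to alpelisib (0.15 without combination 2), all within the pooled SD.

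Group differences were also fitted across all 17663 human genes that passed a filter, as log2(value + 1) of the deposited normalized values, with limma. In nintedanib against vehicle all 6 members were above 0, where 51.7% of all genes were, with a median of 0.54 against 0.02 for all genes. MTRNR2L3 stood at 1.28 (SE 0.43), MTRNR2L8 at 0.93 (SE 0.53), MTRNR2L2 at 0.56 (SE 0.39), MTRNR2L6 at 0.52 (SE 0.26), MTRNR2L10 at 0.50 (SE 0.17) and MTRNR2L1 at 0.33 (SE 0.25). Without vehicle 1 MTRNR2L2 was at 0.19, and without vehicle 2 MTRNR2L1 was at 0.20. The separation of groups seen for MTRNR2L3, MTRNR2L8 and MTRNR2L10, 3 of 6, compares with 4.86% of all genes whose nintedanib libraries were all above vehicle. Of the members 0 were below vehicle in all libraries, as 3.22% of all genes were. Nothing is read from these counts, since the members were chosen on these values.

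By limma, 0 of the 6 passed an adjusted p of 0.05 (Benjamini-Hochberg over all genes) in nintedanib against vehicle, where 0% of all genes did. At an unadjusted p under 0.05 there were 2 (MTRNR2L3 and MTRNR2L10), against 11.6% of all genes. edgeR and DESeq2 on recovered reads also passed 0 of the 6, against 0.0113% and 0.447% of all genes. With only the 2 groups in the fit 1 of 6 passed, MTRNR2L3, where 89 of 16016 genes did (0.556%). Under quantile normalization the difference of MTRNR2L8 was 0.29, since that scaling gives the first-ranked gene of every library the same value.

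In alpelisib against vehicle the 6 members lay between -0.13 and 0.08, with 3 above 0 (51% of all genes) and a median of -0.04 against 0.0055 for all genes. MTRNR2L8 stood at 0.08 (SE 0.53) and MTRNR2L1 at -0.13 (SE 0.25). In the combination against vehicle they lay between -0.46 (MTRNR2L2, SE 0.39) and 0.11 (MTRNR2L3, SE 0.43), with 2 above 0 (53.5% of all genes) and a median of -0.12 against 0.03 for all genes. MTRNR2L8 stood at -0.27 (SE 0.53). The signs of several of these turned when 1 library was left out, for example 0.19 for MTRNR2L8 without combination 2 and -0.42 for MTRNR2L3 without combination 4. With alpelisib 0 of 6 were separated from vehicle, against 1.23% of all genes higher and 0.685% lower, and with the combination 0 of 6, against 1.79% and 1.08%. Neither comparison had a member at an unadjusted p under 0.05, against 2.48% and 8.16% of all genes. Limma, edgeR and DESeq2 each passed 0 of 6, where limma and edgeR passed 0% of all genes in both, and DESeq2 0.00566% with alpelisib and 0.0736% with the combination.

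**Figure D2:**
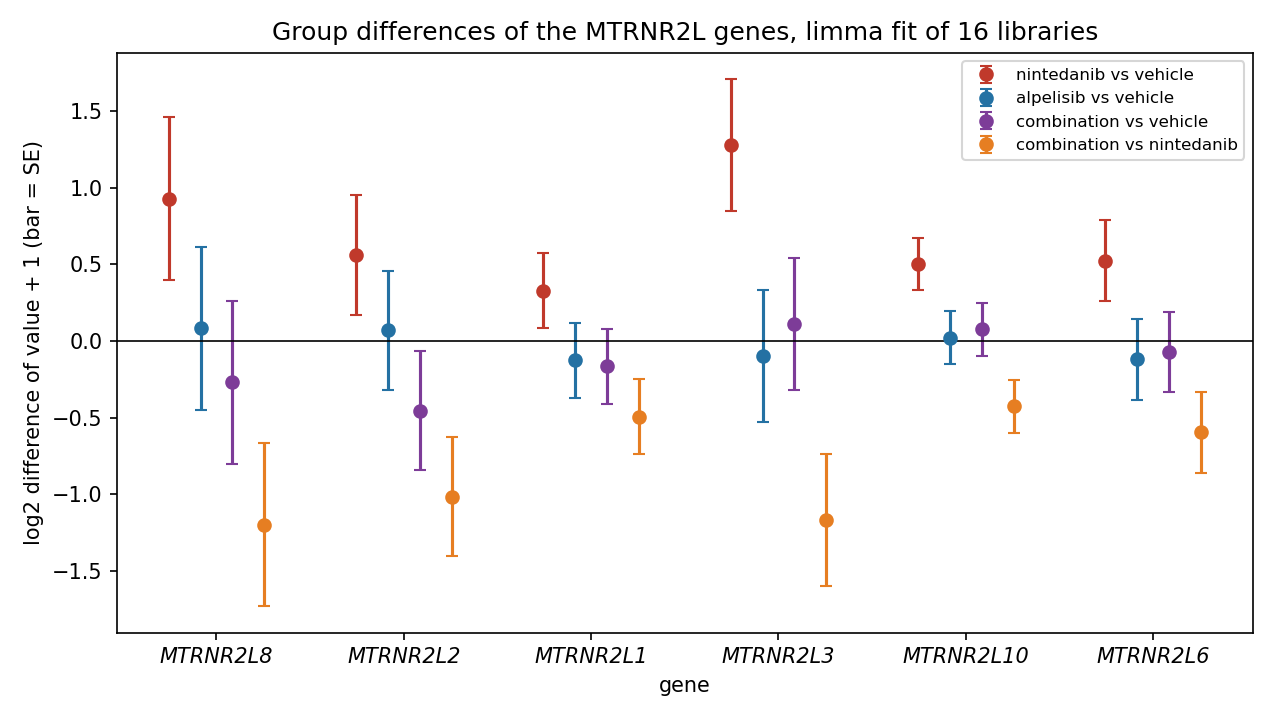
Difference of log2(value + 1) between groups (vertical axis) for the 6 MTRNR2L genes, with SE from the limma fit of 16 libraries. Nintedanib against vehicle lies above 0 for all 6 genes, the combination against nintedanib lies below 0 for all 6, and alpelisib or the combination against vehicle lie within about 1 SE of 0 for most.

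Set against nintedanib alone, the combination had 0 of 6 members above 0 (50.8% of all genes), with a median of -0.81 against 0.0079 for all genes. MTRNR2L8 stood at -1.20 (SE 0.53), MTRNR2L3 at -1.17 (SE 0.43), MTRNR2L2 at -1.02 (SE 0.39), MTRNR2L6 at -0.60 (SE 0.26), MTRNR2L1 at -0.49 (SE 0.25) and MTRNR2L10 at -0.43 (SE 0.17). On normalized values the groups were separated for MTRNR2L8 and MTRNR2L2, where 1.66% of all genes were separated in that direction, and 0 members were separated upwards (1.84% of all genes). On shares of reads combination 4 (4.73% for MTRNR2L8) overlapped nintedanib 3 (4.48%). With limma 0 of 6 passed, against 0% of all genes, 5 had an unadjusted p under 0.05, against 9.27%, and edgeR and DESeq2 passed 0, against 0% and 0.0226%. Under quantile normalization MTRNR2L8 stood at -0.52. Without combination 4 there was 1 past the adjusted threshold, MTRNR2L3 (-1.70), where 123 of 17663 genes passed (0.696%). Without combination 2 there were 0, and 0 at an unadjusted p under 0.05 in place of 5, with a median of -0.49. MTRNR2L8 was then at -0.74, MTRNR2L3 at -0.67, MTRNR2L2 at -0.58 and MTRNR2L6 at -0.40. The unadjusted count was 2 without nintedanib 2 or without nintedanib 4, and 3 without nintedanib 1. This comparison and that of nintedanib with vehicle share the nintedanib libraries. Nothing is read from these counts either, since the members were chosen on their values across the groups and their rows may share reads.

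The combination set against alpelisib gave members between -0.53 (MTRNR2L2, SE 0.39) and 0.21 (MTRNR2L3, SE 0.43), with 3 above 0 (51.4% of all genes) and a median of 0.0045. In that comparison 0 members were separated, against 1.6% of all genes higher and 1.49% lower. The interaction asks whether both drugs together depart from the sum of their separate log2 differences from vehicle. It was above 0 for 0 of 6 (49.7% of all genes), with a median of -0.77 against -0.0037 for all genes. MTRNR2L8 gave -1.28 (SE 0.75), MTRNR2L2 -1.09 (SE 0.55) and MTRNR2L3 -1.07 (SE 0.61). Neither had a member past the threshold by limma, edgeR or DESeq2, where limma passed 0.00566% and 0% of all genes, edgeR 0% and 0%, and DESeq2 0.108% and 0.0566%. Without combination 2 the interaction was -0.82 for MTRNR2L8, -0.65 for MTRNR2L2 and -0.57 for MTRNR2L3, and without vehicle 1 and combination 2 it was -0.52 for MTRNR2L8 and -0.28 for MTRNR2L2. Unadjusted, 0 members were under 0.05 in each, against 8.45% and 6.23% of all genes, and 4 were for the interaction without combination 4. Nothing is read from these counts, for the same reason.

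The members did not all vary together. Over the 16 libraries the Pearson r of log2(value + 1) was 0.90 between MTRNR2L8 and MTRNR2L2, 0.90 between MTRNR2L8 and MTRNR2L3, and 0.94 between MTRNR2L3 and MTRNR2L6, but 0.41 between MTRNR2L2 and MTRNR2L1 and 0.38 between MTRNR2L2 and MTRNR2L10. With group means removed MTRNR2L2 had an r of 0.23 with MTRNR2L1 and 0.15 with MTRNR2L10, and 0.89 with MTRNR2L8. These are descriptions over libraries that share depth and scaling within each point, and rows of near-identical sequence may share reads.

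**Figure D3:**
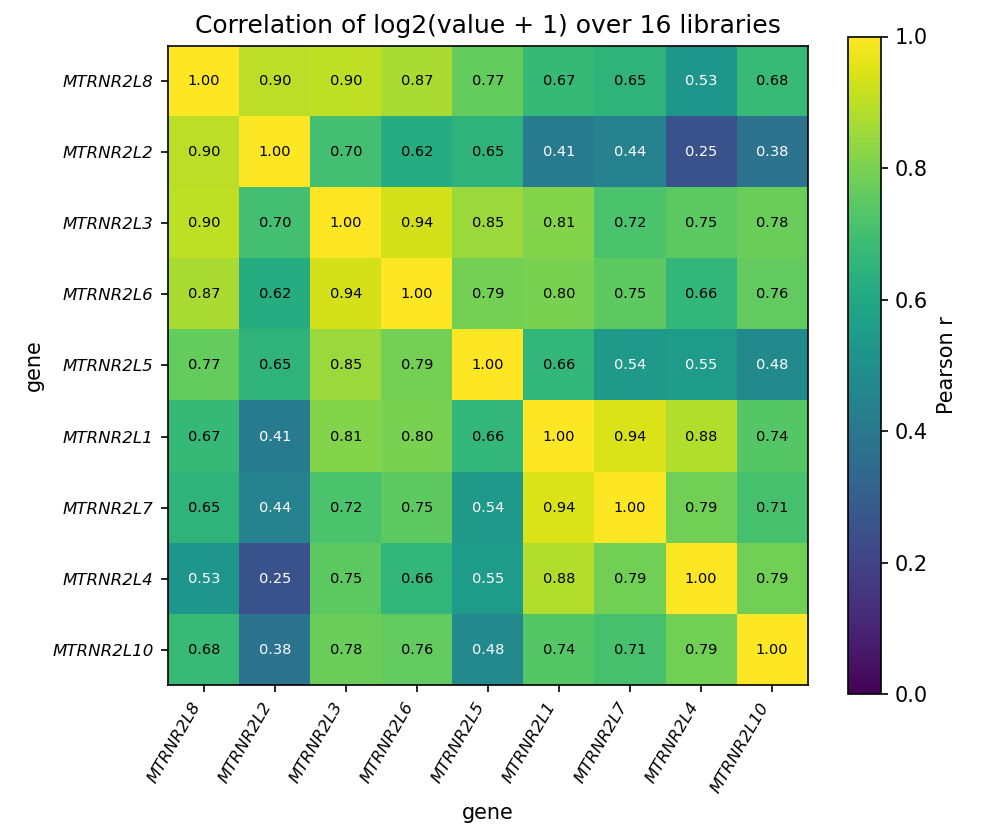
Pearson r of log2(value + 1) over 16 libraries for all 9 MTRNR2L rows of the human table, each cell being 1 pair of genes. MTRNR2L8, MTRNR2L2 and MTRNR2L3 pair at 0.70 to 0.90, and MTRNR2L1, MTRNR2L7, MTRNR2L4 and MTRNR2L10 at 0.71 to 0.94. MTRNR2L3 also pairs with these latter genes at 0.72 to 0.81. MTRNR2L2 has its lowest r, 0.25, with MTRNR2L4.

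The mix within the family also differed between libraries. For every 100 reads of MTRNR2L8 there were 1.46 to 2.69 reads of MTRNR2L1 in 14 libraries, but 4.89 in vehicle 1 and 5.55 in combination 2. MTRNR2L10 showed the same, with 0.283 and 0.428 reads in those libraries and 0.0955 to 0.179 in the others. MTRNR2L3 was richest in combination 4, at 0.572 reads, and in nintedanib 4, at 0.398, and elsewhere lay between 0.174 and 0.335. MTRNR2L2 lay between 4.58 (nintedanib 2) and 10.2 (vehicle 2) reads.

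Neighbouring genes were read beside the members, since MTRNR2L3 overlaps RAE1 in GRCh38.p14. RAE1, an mRNA export factor, stood at -0.44 (SE 0.19) with nintedanib against vehicle. The neighbours of MTRNR2L8 were AMPD3, an AMP deaminase, at 0.41 (SE 0.19), and RNF141, a RING finger protein gene, at 0.54 (SE 0.19). None of these 3 genes passed the threshold by limma in any drug group against vehicle.

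Genes that act with humanin were measured next. Of 11 receptors and partners 8 passed the filter. The formyl peptide receptors FPR1, FPR2 and FPR3 did not. With nintedanib 6 of the 8 were above 0, by a median of 0.17, with alpelisib 7 of 8 by 0.16, and with the combination 4 of 8 with a median of -0.02, and 0 passed the threshold by limma in each. IGFBP3 stood at 0.72 (SE 0.27) with nintedanib and 1.06 (SE 0.27) with the combination. The receptor subunit IL6ST stood at 0.54 (SE 0.25) with nintedanib and IL27RA at -0.50 (SE 0.27), while BID stood at 0.41 (SE 0.27) with alpelisib. The unadjusted count was 2, 0 and 2 of 8, against 11.6%, 2.48% and 8.16% of all genes. Of all genes 51.7%, 51% and 53.5% were above 0.

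The nuclear genes that serve mitochondrial RNA, ribosomes and respiration mostly lay on the other side of 0 with nintedanib. Of 33 genes for mitochondrial transcription and RNA handling 22 were below 0, with a median of -0.10, among them the tRNA-processing enzyme ELAC2 (-0.55, SE 0.17) and the mitoribosome assembly helicase DDX28 (-0.55, SE 0.24). Of 75 mitochondrial ribosomal protein genes 67 were below 0 (median -0.27), including MRPS16 (-0.59, SE 0.17). Of 30 nuclear oxidative phosphorylation genes 27 were below 0 (median -0.37), including the ATP synthase genes ATP5B (-0.60, SE 0.16) and ATP5G1 (-0.65, SE 0.20). Limma passed 0 in each list, where 0% of all genes passed. In the same order 3, 9 and 10 had an unadjusted p under 0.05, against 11.6% of all genes. Of all genes 51.7% were above 0, with a median of 0.02.

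With alpelisib those 3 lists had medians of 0.01, -0.04 and -0.04, and with the combination -0.10, -0.12 and -0.26, again with 0 past the threshold by limma. The unadjusted counts were 0, 1 and 0 with alpelisib, against 2.48% of all genes. With the combination they were 1, 5 and 6, against 8.16% of all genes. DDX28 stood at -0.61 (SE 0.24) with the combination, MRPS12 at -0.61 (SE 0.21) and NDUFB10 at -0.49 (SE 0.18).

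Across libraries, the summed share of the MTRNR2L genes was set beside 7 measures. No p-value is given, since that share chose the genes. For the mean level of the oxidative phosphorylation genes, Pearson r was -0.46 and Spearman rho -0.70. For the mitochondrial ribosomal protein genes r was -0.46 and rho -0.69. Without the 2 libraries farthest from the median, combination 4 and vehicle 2, both r were -0.51, and with group means removed they were -0.31 and -0.28. Combination 2 had the lowest MTRNR2L share at an intermediate level of these genes.

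The MTRNR2L share was also set beside the mouse share of all reads, since reads were mapped to both genomes separately. There r was -0.17, rho -0.36 and r -0.44 without combination 1 and nintedanib 4. Whether mouse mitochondrial reads aligned to the MTRNR2L rows was not tested. For total human reads r was -0.14, rho 0.11 and r 0.064 without combination 3 and nintedanib 4. For the skeletal muscle markers r was 0.24, rho 0.091 and r 0.17 without combination 1 and nintedanib 4, the 2 libraries rich in muscle. Those 2 held an MTRNR2L8 share of 6.27% and 2.74%. Without both of them the summed log2 share was 0.83 higher with nintedanib than with vehicle.

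The genes most like the summed MTRNR2L value over 16 libraries were PCM1 (r = 0.97), which encodes a centriolar satellite protein, and the small nucleolar RNAs SNORD79 (0.96), SNORD89 (0.96), SNORA32 (0.95) and SNORD26 (0.95). With group means removed they were DENND2C (0.98), PCM1 (0.97), SNORD89 (0.95), the histone acetyltransferase gene KAT6B (0.95) and SNORD79 (0.95). Small nucleolar RNAs guide the chemical modification of ribosomal RNA and are cut from introns, without a poly(A) tail of their own. They were 12 of the 100 most alike genes, and 0.821% of all genes tested outside the family. PCM1 normalized values were 152 to 348.2 with vehicle and 379 to 528.4 with nintedanib, without overlap. SNORD79 normalized values were 143 to 791.1 and 1223 to 2090.1, also without overlap. Of all genes 4.86% were separated in that direction. Both genes were picked for likeness to a summed value that itself separates these groups, so nothing is read from their separation.

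Together 368 small nucleolar RNA rows, a list added after these genes were seen, took 0.0406% to 0.160% of human reads with vehicle, 0.200% to 0.416% with nintedanib, 0.0647% to 0.200% with alpelisib and 0.0298% to 0.472% with the combination. Their log2 share had an r of 0.93 with that of the MTRNR2L genes and a rho of 0.93. It was 0.95 without combination 2 and combination 4, 0.94 with group means removed, and 0.88 to 0.997 within the 4 groups of 4. SNORD50A held 75.4% of these reads, and without it r was 0.96. The list was chosen for this likeness, and both shares come from the same library totals. The part of these RNAs, or of RNA quality, in the differences between groups was not tested.

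**Figure D4:**
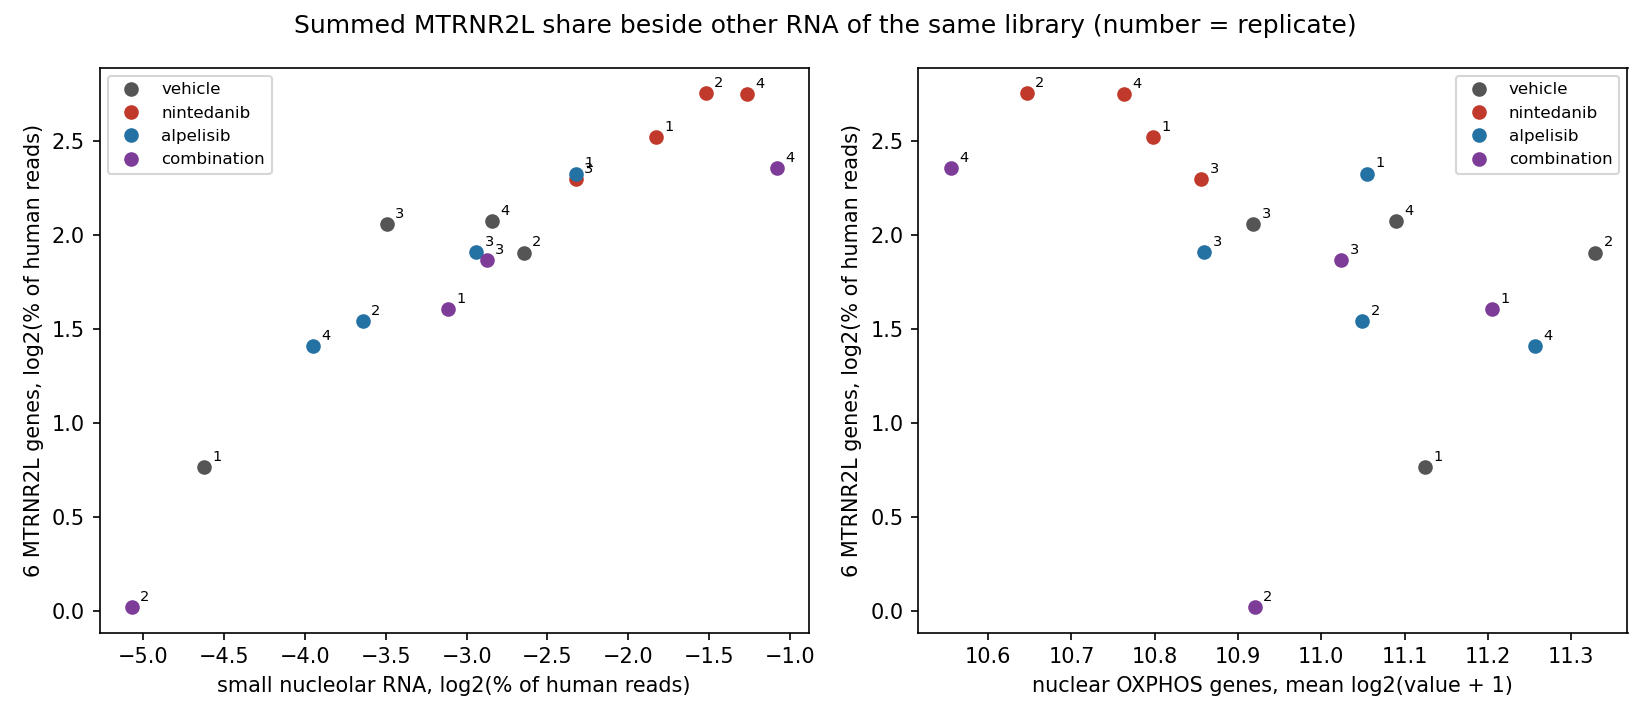
Summed share of the 6 MTRNR2L genes (vertical axis, log2 of percent of human reads) against the summed share of small nucleolar RNAs (left, same unit) and the mean log2(value + 1) of nuclear oxidative phosphorylation genes (right), 1 point per library, numbered by replicate. On the left the points follow a line (r = 0.93), with combination 2 and vehicle 1 at the low end of both, and on the right they scatter more widely (r = -0.46).

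In the limma fit 145 small nucleolar RNAs passed the filter. With nintedanib against vehicle 102 were above 0 and the median was 0.57, with alpelisib 86 (0.17) and with the combination 71 (-0.0089). Limma passed 0 in each, and 27, 3 and 4 had an unadjusted p under 0.05. Of all genes 11.6%, 2.48% and 8.16% had one, and 51.7%, 51% and 53.5% were above 0. The list was chosen for its likeness to the MTRNR2L genes, so nothing is read from these counts. SNORD19B, with the smallest p, stood at 2.83 (SE 0.64) with nintedanib against vehicle. SNORD89 stood at 1.75 (SE 0.58) there and at -1.81 (SE 0.58) with the combination against nintedanib.

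A further list of small RNAs without a poly(A) tail, such as RNU11 of the minor spliceosome and RMRP, had 8 genes tested. With nintedanib 7 were above 0, by a median of 0.66 (RNU11 1.49, SE 0.56), and with alpelisib 5 by 0.21 (RNU11 1.46, SE 0.56). With the combination 4 were above 0, by 0.03. In the same order 1, 2 and 0 of these small RNAs had an unadjusted p under 0.05, and limma passed 0 in each. Their summed share had an r of 0.58 with the MTRNR2L share and a rho of 0.18, and without combination 2 and nintedanib 4 r was 0.031. Long RNAs kept in the nucleus had 3 genes tested, with medians of 0.16, -0.23 and 0.15 in nintedanib, alpelisib and the combination against vehicle and 0 past the threshold by limma (0, 0 and 1 unadjusted). MALAT1 stood at 0.46 (SE 0.44) with nintedanib and NEAT1 at -0.0032 (SE 0.25). Beside the counts of both lists, 11.6%, 2.48% and 8.16% of all genes had an unadjusted p under 0.05 in these comparisons. Above 0 were 51.7%, 51% and 53.5% of all genes.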

How the data were processed

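The authors mapped reads of 3′ mRNA libraries separately to the human and mouse genomes. TopHat with hg19 and mm10 is named in the submitters' processing notes, and the counting tool, annotation and scaling method were not given in the sources used here. The deposited tables hold signal, a normalized value per gene and library. Within each library all values (100%) equalled whole numbers of reads times 1 fixed step, to a tolerance of 0.01 read, so whole reads were recovered and shares computed.

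The design foresaw counts or normalized values, and the latter branch was used. The 17663 human genes that reached a value of 1 in 4 or more libraries were fitted as log2(value + 1), with a mean for each of 4 groups over 16 libraries, in limma 3.58.1 (eBayes with trend, R 4.3.3). Benjamini-Hochberg adjustment covered all these genes, with a threshold of 0.05. The labels name no separate animals, so p-values reflect only the spread among these libraries. In recovered reads, pairs of libraries within a group differed by a chi-square of 25.4 to 188.2 per degree of freedom, beyond counting error. What part of that spread is technical, or lies between pieces of tissue or animals, was not tested. edgeR 4.0.16 quasi-likelihood and DESeq2 1.42.0 on recovered reads were alternatives. On these reads edgeR passed 2 genes in nintedanib against vehicle and 0 in the other 5 comparisons. The fit was tested on simulated data. Permutation p-values for relations of the summed share were computed but are not printed, since that share chose the genes.

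Members and lists were chosen with earlier results of these data known. Named genes are all members, the list genes with the smallest p (up to 3 per list and drug comparison), and the 5 most alike by Pearson r, with and without group means. Intervals from depth would cover counting error only, since reads carry no molecular identifiers. Labelled replicate numbers did not pair the samples: the r of same-numbered deviations ran from -0.22 to 0.15. No sequence of the members is printed, because none was given. Some genes of the lists and neighbourhoods are not reported here.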

Additional observations from a re-analysis of the deposited data

Results flagged for a closer look

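MTRNR2L2 took 0.0648% of human reads in combination 2, far below the 0.223% to 0.249% of the other 3 combination libraries. The gap was 0.859 of the range of the group, above Dixon's 95% critical value for 4 samples. It was the 1 library so set apart among 28 groups of 4 examined, and chance sets apart about 1 in 20. The same library had the lowest MTRNR2L8 share (0.892%). Its MTRNR2L10 level (38.2 reads per 1000000 human reads) was also the lowest of the combination group. That level lay just below all vehicle libraries (38.8 to 48.0) and within the range of the alpelisib libraries (36.5 to 49.99).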

How the results depend on the processing

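The count of members past the threshold was 0 in all 6 comparisons and stayed 0 under no filter, a stricter filter (value of 10), limma with no trend, quantile normalization, a pseudocount of 0.1, scaling to human plus mouse reads, edgeR and DESeq2, and, chosen after seeing the data, without nintedanib 4 and combination 1 or without vehicle 1 and combination 2. With only the groups compared it was 1 for nintedanib against vehicle, where 89 of 16016 genes passed. Leaving out each library in turn gave 0 to 1 for the combination against nintedanib (1 without combination 4, where 123 of 17663 genes passed) and 0 elsewhere. With the replicate number as a block the count was 0 throughout, and the numbers did not pair the samples (2 of 24 same-numbered pairs had r over 0.1). In the settings with a count of 0 few genes of any kind passed. With no filter at most 1 of 20751 did, and with the stricter filter, quantile normalization or a pseudocount of 0.1, 0 did. Of 17663 genes at most 8 passed with the block, 14 without nintedanib 4 and combination 1, and 79 with DESeq2. The counts of 0 are near these shares and are no result about the members. For the summed share without MTRNR2L8, nintedanib against vehicle stood at 0.49 and the combination against nintedanib at -0.81, and these moved to 0.22 without vehicle 1 and to -0.44 without combination 2 (chosen after seeing the data). Depth limits MTRNR2L6 most, at 95 to 370 reads per library.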

Other observations

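The human table also lists 3 MTRNR2L rows outside the 7 named genes. MTRNR2L7 had mean normalized values (± SD, n = 4) of 264.6 ± 44.8 in vehicle, 330.9 ± 76.8 in nintedanib, 228.1 ± 72.1 in alpelisib and 204.6 ± 62.6 in combination tumours. MTRNR2L4 had 155.6 ± 22.3, 227.5 ± 59.5, 160.7 ± 40.7 and 171.6 ± 78.2 in the same order. MTRNR2L5 had the fewest reads, 6 to 70 reads per library. All 3 had overlapping groups in nintedanib against vehicle. MTRNR2L7 and MTRNR2L4 followed MTRNR2L1 (r = 0.94 and 0.88 over 16 libraries) more closely than MTRNR2L8 (0.65 and 0.53).

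The small nucleolar RNAs most like the MTRNR2L genes lie in introns of other genes, whose own rows, picked after the values were seen, gave other differences. With nintedanib against vehicle SNORD79 stood at 1.78 (SE 0.54) and its host GAS5 at -0.12 (SE 0.33). SNORD26 stood at 1.42 (SE 0.58) and its host SNHG1 at -0.47 (SE 0.37). SNORD89 stood at 1.75 (SE 0.58) and its host RNF149 at 0.07 (SE 0.16). SNORA32 stood at 2.28 (SE 0.74) and its host TAF1D at 0.54 (SE 0.28). The difference between a small RNA and its host was not tested.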
